A study of Mus musculus with 40 samples.

Results

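Duox2 and Duoxa2 form an oxidase pair of the gut epithelium, and their transcripts were followed here in the colonic mucosa of mice with different microbiota. They are 2 of the 224 assays of a real-time quantitative PCR panel and were chosen by assay ID, Mm01326247_m1 for Duox2 and Mm00470560_m1 for Duoxa2. The gene names are those of the assay vendor, since the deposited table lists IDs alone. For the same reason no other assay of the panel is named by gene, neither other oxidase genes nor epithelial or leukocyte markers, so the labelled tissue could not be checked against its defining genes.

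Duox2 encodes dual oxidase 2, an enzyme of the apical membrane that takes electrons from NADPH inside the cell and releases hydrogen peroxide into the lumen. Duoxa2 encodes its maturation factor, which the oxidase needs to leave the endoplasmic reticulum and reach the cell surface. The pair serves hormone synthesis in the thyroid, and in the intestine it is known as a part of the epithelial response to microbes.

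The panel was run on total RNA of colonic mucosa from 4 groups of mice, with 10 samples per group and 40 in all. The controls were germ-free mice, which carry no microbes. Mice of the 2 mono-associated groups carried a single Escherichia coli strain for 21 days, E. coli CEC in one group and E. coli Nissle, a strain used as a probiotic, in the other. Conventional mice (CV) had a microbiota whose composition and age the labels do not give, so that length of colonisation and kind of microbiota cannot be told apart between them and the mono-associated mice. The labels used here name no mouse strain, sex or age and do not say what CEC stands for. According to the deposited design text equal amounts of RNA from the mice were pooled, so a sample may not be 1 mouse. The p-values rest on how far the samples of a group lie from each other, and that spread may be technical. In RNA of whole mucosa, fewer epithelial cells and less RNA per cell cannot be told apart.

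The 2 genes lie next to each other and point away from each other. Both symbols matched a RefSeq promoter window of 300 bases, 250 before the transcription start and 50 from it on, on chromosome 2 of the build GRCm38.p6. The Duox2 window is chr2:122298178-122298477 on the minus strand, and the Duoxa2 window is chr2:122298650-122298949 on the plus strand. The start sites of these windows are 673 bases apart. The RefSeq gene model of Duox2 also reaches further upstream, into the Duoxa2 window, so the distance and the Duox2 window hold for 1 annotated start only, which need not be the start used in colon. Among the genes with a RefSeq window, 3106 of 27025 (11.5%) have a start on the opposite strand at most that far upstream. The next genes beyond Duoxa2 in the RefSeq order are the related pair Duoxa1 and Duox1. The windows are shown because the 2 transcripts were measured side by side in every sample and share this stretch of genome; capitals mark the motifs found.
Duox2: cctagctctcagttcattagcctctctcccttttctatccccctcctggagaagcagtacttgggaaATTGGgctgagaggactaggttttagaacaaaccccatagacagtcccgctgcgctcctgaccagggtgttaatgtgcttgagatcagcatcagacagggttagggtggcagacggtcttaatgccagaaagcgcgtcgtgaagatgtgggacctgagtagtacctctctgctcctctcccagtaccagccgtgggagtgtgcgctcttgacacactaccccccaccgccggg
Duoxa2: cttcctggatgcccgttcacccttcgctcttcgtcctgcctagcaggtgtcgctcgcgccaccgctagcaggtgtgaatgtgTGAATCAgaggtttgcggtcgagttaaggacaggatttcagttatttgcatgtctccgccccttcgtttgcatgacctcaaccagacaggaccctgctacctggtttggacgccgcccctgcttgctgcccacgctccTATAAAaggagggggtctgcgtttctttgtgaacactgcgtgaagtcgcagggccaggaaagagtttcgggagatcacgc

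Both strands of each window were searched for 6 letter strings. The Duoxa2 window holds TATAAA, the TATA box, beginning at base -30 from the start, and TGANTCA, the AP-1 string, beginning at base -168. The Duox2 window, at the annotated start used, holds neither of these, and holds CCAAT on its opposite strand (read as ATTGG) beginning at base -183. No match to TTCNNNGAA (STAT) or to either of 2 NF-kB strings lies in these windows. Of all 32851 RefSeq promoter windows, 13.6% hold TATAAA, 7.81% hold TGANTCA, 37.4% hold CCAAT and 8.3% hold TTCNNNGAA, while 0.155% and 0.0883% hold the NF-kB strings. These matches describe letters in the windows only, and the panel measured no binding.

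Every one of the 80 values of the pair was a measured Ct (threshold cycle, the PCR cycle at which fluorescence crosses a set level; each cycle earlier stands for about 2 times as much template). Duox2 crossed between 19.09 and 25.02 cycles and Duoxa2 between 18.88 and 27.55. Expression is given below as log2 relative expression, the median Ct of the sample over the 203 assays without an undetermined well, minus the Ct of the assay. The mean of this sample median was lowest in conventional samples, at 21.96 cycles, and highest after CEC, at 22.72, with germ-free samples at 22.47 and Nissle samples at 22.30. By group medians CEC, at 22.33, lay below germ-free, at 22.57, and Nissle, at 22.43, with conventional samples again lowest, at 21.93. Since 2 assays need not amplify equally well, differences between groups were compared between Duox2 and Duoxa2, and their levels were not.

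2 samples stand apart in the pair. CEC replicate 6 had 4.70 for Duox2 and 4.91 for Duoxa2, the highest of all 40 samples for both. Its sample median Ct was also high, at 23.79 against a CEC median of 22.33, which adds to these values. On raw Ct it crossed at 19.09 for Duox2 and 18.88 for Duoxa2, where the next CEC samples had 22.06 and 22.86. It was also the highest or lowest CEC sample in 78 of the 153 assays measured in every sample. The other CEC samples were extreme in at most 63. All the other 39 samples were extreme in 6 to 105 assays of their groups, with a median of 25. The sample with 105, Nissle replicate 8, lay inside its group for both genes (-0.04 and -2.64). Conventional replicate 5 was the lowest conventional sample for both genes, and it was extreme in 46 of the 153 assays. Calls and signs that turn on these samples are given with and without them, and what sets them apart was not tested.

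**Figure D1:**
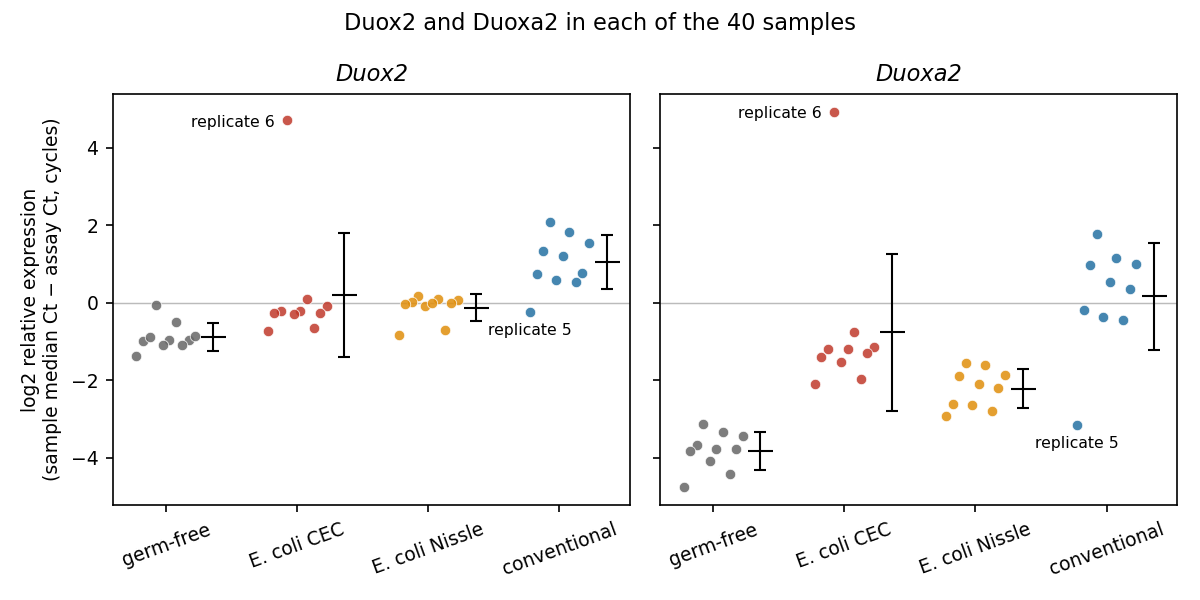
Log2 relative expression (cycles) of Duox2 (left) and Duoxa2 (right) in each sample of the 4 groups; points are samples, and the black bars to their right are means with SD (n = 10 per group). CEC replicate 6 lies at 4.70 and 4.91, far above the other CEC samples, and conventional replicate 5 lies lowest in its group.

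Duoxa2, the maturation factor, had its lowest values in germ-free mucosa. Germ-free samples ran from -4.75 to -3.13 with a median of -3.77. Nissle samples ran from -2.92 to -1.56 with a median of -2.15, and every one of them lay above every germ-free sample. CEC samples ran from -2.09 to 4.91 with a median of -1.25, again all above the germ-free range, and 9 of them lay between -2.09 and -0.77. Conventional samples ran from -3.17 to 1.77 with a median of 0.44. Of these, 9 lay above the germ-free range by more than 2 cycles, at -0.45 or higher, while replicate 5 at -3.17 lay just below the highest germ-free sample.

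Group means of Duoxa2 were -3.82 ± 0.49 in the germ-free group, -2.22 ± 0.50 after Nissle, -0.77 ± 2.03 after CEC and 0.16 ± 1.37 in the conventional group (SD, n = 10 each). The order of the medians is the same as that of the means. Of the neighbours in this order, germ-free and Nissle did not overlap, Nissle and CEC overlapped, with 8 of 10 CEC samples above the highest Nissle sample, and the CEC and conventional ranges overlapped through CEC replicate 6 and conventional replicate 5.

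Duox2, the oxidase itself, spanned a smaller range between groups. Germ-free samples ran from -1.38 to -0.07 with a median of -0.96. CEC samples ran from -0.74 to 4.70 with a median of -0.24, and without replicate 6 the highest was 0.10. Nissle samples ran from -0.84 to 0.18 with a median of -0.01. The ranges of both mono-associated groups overlapped the germ-free range, whose highest sample was replicate 30 at -0.07, with the next at -0.51. Conventional samples ran from -0.25 to 2.09 with a median of 0.98, and 9 of the 10 lay above every germ-free and every Nissle sample.

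Group means of Duox2 were -0.88 ± 0.36 in the germ-free group, -0.13 ± 0.35 after Nissle, 0.20 ± 1.60 after CEC and 1.04 ± 0.70 in the conventional group (SD, n = 10 each). The place of the 2 strains in this order rests on a single sample. Without CEC replicate 6 the CEC mean was -0.30 ± 0.26 (SD, n = 9), below the Nissle mean, as the CEC median was with all samples.

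The spread of the pair differed from group to group. In germ-free samples the SD of Duox2 was 0.357 and that of Duoxa2 0.494, ranks 103 and 57 from the largest among 153 assays, whose median SD was 0.447. In Nissle samples the ranks were 138 and 101. In conventional samples the SD of Duoxa2, 1.37, was the 5th largest of the 153 and that of Duox2, 0.697, the 24th, against a median of 0.425. These values include conventional replicate 5, without which the SDs were 0.763 for Duoxa2 and 0.563 for Duox2. The CEC ranks of 8 for Duoxa2 and 14 for Duox2 include replicate 6, without which their SDs were 0.42 and 0.26.

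The first question of the design is what a bacterial strain alone changes in mucosa without microbes. After CEC, Duoxa2 rose 8.29-fold over germ-free, a log2 difference of 3.05 with a standard error of 0.55 and a 95% interval of 1.93 to 4.17 (limma fitted over all assays and groups, Benjamini-Hochberg adjusted p = 9.15e-05). All 10 CEC samples lay above every germ-free sample, and it was the only one of 213 tested assays (0.469%) with separate ranges in this comparison. Without CEC replicate 6 the rise was 5.35-fold (log2 difference 2.42, standard error 0.36, limma adjusted p = 7.43e-06). At an adjusted p under 0.05, 10 of the 213 assays (4.69%) were called higher after CEC with all samples, and 14 (6.57%) without that replicate. Among all 213 differences that of Duoxa2 was the 2nd highest.

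For Duox2 the CEC samples averaged 2.11-fold above germ-free, a log2 difference of 1.08 (standard error 0.40, 95% interval 0.28 to 1.88), which did not pass after adjustment (limma, adjusted p = 0.0736). Each of the 10 CEC samples lay above the germ-free mean, and 2 of them above the highest germ-free sample. Without CEC replicate 6 the difference was 0.58, or 1.49-fold (limma, adjusted p = 0.064). Without CEC replicate 8, the lowest CEC sample, it was 1.18 and passed (limma, adjusted p = 0.049), in a fit that called 19 of 213 assays (8.92%) higher. A two-sided permutation test of the group means over all assays, with 100000 resamples, does not pool the spread of the 4 groups. It gave an adjusted p of 0.0178 and called 10 of 213 assays (4.69%) higher. The limma fit of these 2 groups alone does not pool that spread either. Its standard error was 0.49, and the difference did not pass (limma, adjusted p = 0.203). Over all other settings the adjusted p ranged from 0.00272 to 0.256. The lowest came with sample quality weights, under which 49 of 213 assays (23.0%) were called higher, and the call without both CEC replicate 6 and conventional replicate 5 came with 15 (7.04%).

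After Nissle, Duoxa2 was 3.04-fold above germ-free, with a log2 difference of 1.60 (standard error 0.55, 95% interval 0.48 to 2.72). All 10 Nissle samples lay above all germ-free samples, a separation that 2 of the 215 tested assays (0.930%) showed. The adjusted p in the fit of all groups was 0.064 (limma), a fit where the standard error is drawn from all 4 groups. With the 2 groups fitted alone the standard error was 0.22 and the call passed (limma, adjusted p = 4.97e-05). Leaving out CEC replicate 6, which belongs to neither group, gave a standard error of 0.35 (limma, adjusted p = 0.00185), and leaving out conventional replicate 5 gave an adjusted p of 0.0428. The permutation test gave 0.000717. The adjusted p of this comparison reached 0.119 over the other settings, while the log2 difference stayed between 1.48 and 1.77.

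Duox2 averaged 1.68-fold above germ-free after Nissle, with a log2 difference of 0.75 (standard error 0.40, 95% interval -0.06 to 1.55; limma, adjusted p = 0.286), and 7 of 10 Nissle samples lay above the highest germ-free sample. With the 2 groups alone the standard error was 0.17 (limma, adjusted p = 0.00473), without CEC replicate 6 it was 0.20 (limma, adjusted p = 0.0113), and the permutation test gave an adjusted p of 0.0111. Of the 215 assays tested, 9 (4.19%) were called higher after Nissle in the fit of all groups, neither Duox2 nor Duoxa2 among them. Both were called with the 2 groups alone or by permutation, each with 12 assays called higher (5.58%), and without CEC replicate 6, alone or with conventional replicate 5, each with 15 (6.98%). Sample quality weights also called both, with 22 (10.2%), and leaving out conventional replicate 5 called Duoxa2 alone of the pair, with 10 (4.65%).

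Against germ-free, conventional mucosa had the largest mean differences of the 3 colonised groups for both genes, and both passed under all 55 other settings. Duoxa2 was 15.8-fold higher, with a log2 difference of 3.98 (standard error 0.55, 95% interval 2.86 to 5.10; limma, adjusted p = 2.72e-06), and 9 of 10 conventional samples lay above every germ-free sample. Without conventional replicate 5 it was 20.4-fold higher, and the ranges did not overlap for either gene, as for 9 of 214 assays (4.21%). Duox2 was 3.77-fold higher, with a log2 difference of 1.91 (standard error 0.40, 95% interval 1.11 to 2.72; limma, adjusted p = 0.000586), again with 9 of 10 samples above the germ-free range. In this comparison 14 of 214 assays (6.54%) were called higher. Duoxa2 held rank 3 and Duox2 rank 9 from the top of the 214 differences, whose median was -0.18. By the same ranking against germ-free, Duox2 was 14th of 213 after CEC, and 35th without CEC replicate 6. After Nissle, Duoxa2 was 7th and Duox2 17th of 215. The 3 comparisons share the germ-free samples, so their differences are not independent of each other.

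**Figure D2:**
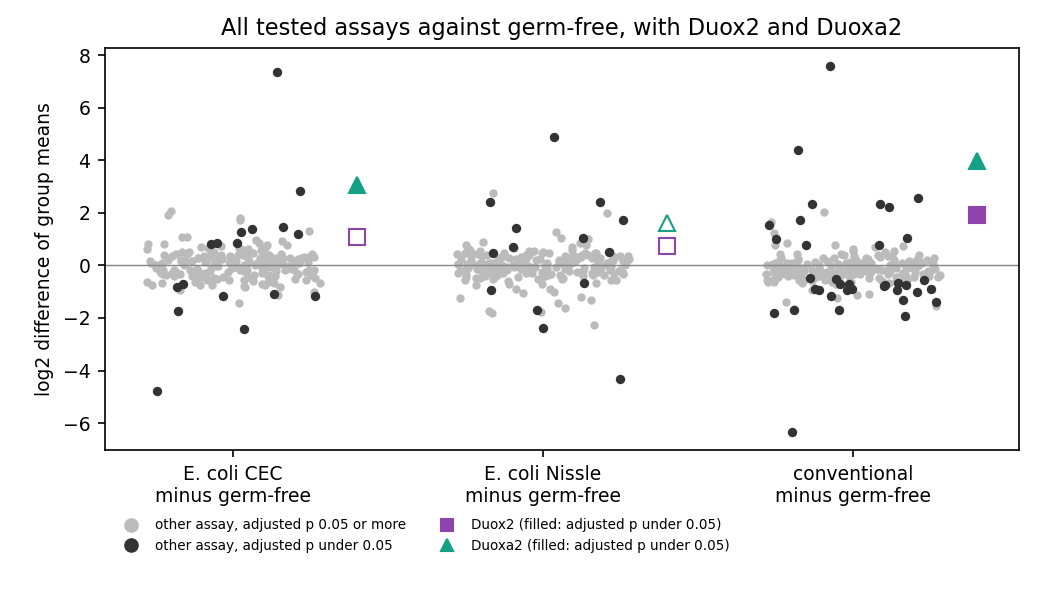
Log2 differences of group means against germ-free for all tested assays (213, 215 and 214, from left to right), with dark points for other assays at an adjusted p under 0.05 and grey points for the rest. Duox2 (squares) and Duoxa2 (triangles) stand at the right of each cloud, filled where limma called them: Duoxa2 after CEC at 3.05, and both in conventional samples at 1.91 and 3.98.

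The 2 strains were then set against each other. Duoxa2 averaged 2.73-fold higher after CEC than after Nissle, a log2 difference of 1.45 (standard error 0.55, 95% interval 0.33 to 2.57) that did not pass (limma, adjusted p = 0.16). It was 0.82, or 1.76-fold, without CEC replicate 6 (limma, adjusted p = 0.307), and it passed in none of the 56 other settings, where the adjusted p ran from 0.0897 to 0.34. Of the CEC samples, 8 of 10 lay above every Nissle sample, and 7 of 9 without CEC replicate 6. How many assays of the panel separate as far was not counted. For Duox2 the difference was 0.33 (standard error 0.40, 95% interval -0.47 to 1.14; limma, adjusted p = 0.671). Its sign turned without CEC replicate 6, to -0.17 (95% interval -0.59 to 0.26), and without normalisation, to -0.09, so no direction can be given. Of 214 assays 7 (3.27%) were called between the strains, and 3 (1.40%) without CEC replicate 6.

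Mono-associated mucosa was compared with conventional mucosa last. After Nissle both genes were lower than in conventional samples. Duoxa2 was 5.19-fold lower, with a log2 difference of -2.38 (standard error 0.55, 95% interval -3.50 to -1.25; limma, adjusted p = 0.00184), and Duox2 was 2.25-fold lower, with a log2 difference of -1.17 (standard error 0.40, 95% interval -1.97 to -0.37; limma, adjusted p = 0.0282). All 10 Nissle samples lay below the conventional mean of either gene. Without conventional replicate 5 the ranges did not overlap for either gene, as for 6 of 215 assays (2.79%). Without conventional replicate 9, the highest, Duox2 no longer passed (log2 difference -1.05; limma, adjusted p = 0.0527). Of the 215 assays 17 (7.91%) were called lower after Nissle.

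After CEC the pair did not pass against conventional samples, at a log2 difference of -0.93 for Duoxa2 (95% interval -2.05 to 0.19; limma, adjusted p = 0.221) and -0.83 for Duox2 (95% interval -1.64 to -0.03; limma, adjusted p = 0.115). Both calls turned on CEC replicate 6. Without it Duoxa2 was 2.95-fold lower after CEC, with a log2 difference of -1.56 (limma, adjusted p = 0.0013), and Duox2 was 2.52-fold lower, with -1.33 (limma, adjusted p = 9.92e-06). In that fit 23 of 214 assays (10.7%) were called lower after CEC, and with all samples 16 (7.48%). Both genes also passed with sample quality weights, without normalisation, and without both samples, settings that called 33 (15.4%), 52 (24.3%) and 25 (11.7%) of the assays lower. With conventional replicate 5 left out as well, the CEC and conventional ranges did not overlap for either gene, as for 8 of 214 assays (3.74%).

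**Figure D3:**
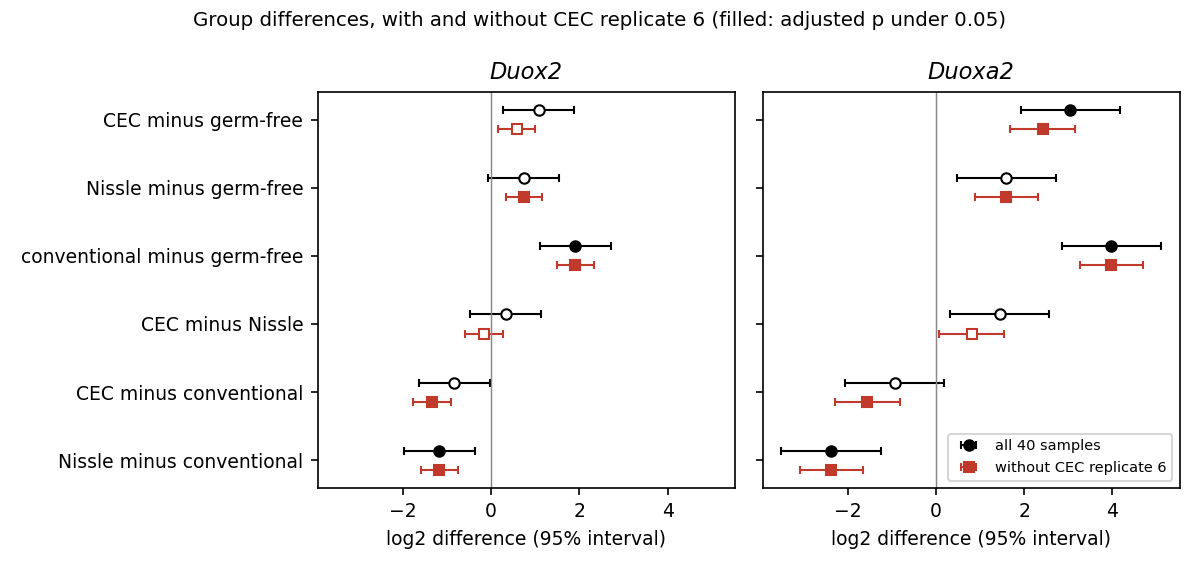
Log2 differences of group means with 95% intervals for the 6 comparisons of Duox2 (left) and Duoxa2 (right), in the limma fit of all 40 samples (black circles) and without CEC replicate 6 (red squares); filled symbols have an adjusted p under 0.05. Without that sample the intervals narrow in comparisons it takes no part in, and the Duox2 difference between the strains moves from 0.33 to -0.17.

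The 2 genes did not move by equal amounts. Within a sample the Ct of Duox2 minus the Ct of Duoxa2 follows the change of Duoxa2 relative to Duox2 and does not depend on the normaliser. It averaged -2.95 ± 0.74 cycles in the germ-free group, -2.09 ± 0.35 after Nissle, -0.97 ± 0.64 after CEC and -0.88 ± 0.77 in the conventional group (SD, n = 10 each). Germ-free samples ran from -4.35 to -2.04 with a median of -2.76, and conventional samples from -2.92 to -0.32 with a median of -0.76, where replicate 5 alone lay below -1.04. CEC samples ran from -2.20, in replicate 10, to 0.21, in replicate 6, with a median of -0.99, and Nissle samples from -2.60 to -1.57 with a median of -2.09.

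The difference from germ-free was greater for Duoxa2 than for Duox2 in each colonised group. The excess was 3.92-fold after CEC (1.97 cycles; two-sided permutation test with 100000 resamples, p = 7e-05, adjusted over the 6 comparisons 0.00024), 1.81-fold after Nissle (0.86 cycles; permutation p = 0.00217, adjusted 0.0026) and 4.18-fold in conventional samples (2.06 cycles; permutation p = 8e-05, adjusted 0.00024). Without CEC replicate 6 the CEC excess was 3.58-fold (adjusted permutation p = 0.00024). The conventional excess was 4.9-fold without conventional replicate 5 (adjusted permutation p = 3e-05). The excess was also 2.16-fold greater after CEC than after Nissle (1.11 cycles, permutation p = 0.00031, adjusted 0.00062), and 1.98-fold without CEC replicate 6 (adjusted permutation p = 0.00092). Nissle samples lay 1.21 cycles below conventional samples (permutation p = 0.00078, adjusted 0.00117). CEC and conventional samples differed by -0.09 cycles (permutation p = 0.78), a difference whose sign turned to 0.04 without CEC replicate 10. These folds assume a doubling per cycle in both assays; no amplification efficiency of either was used here.

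**Figure D4:**
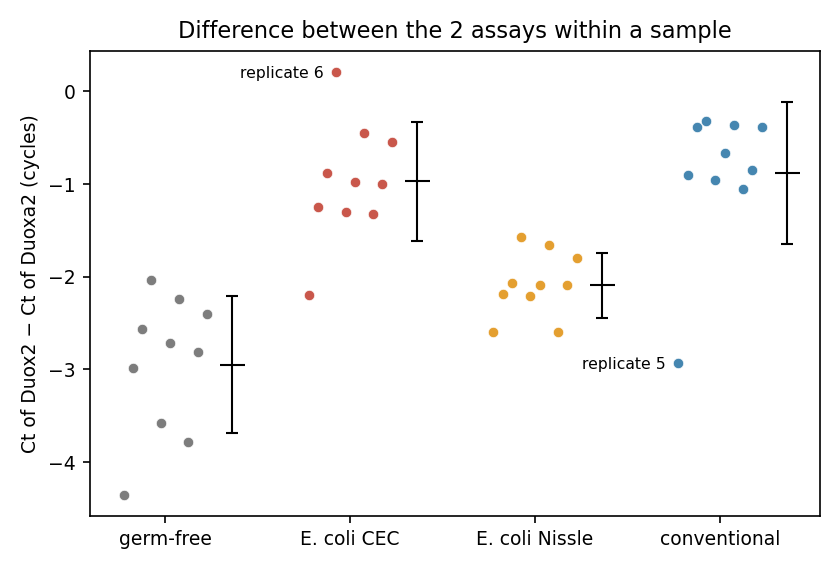
Ct of Duox2 minus Ct of Duoxa2 (cycles) in each sample of the 4 groups, with means and SD (n = 10 per group) as black bars. Germ-free samples lie lowest, at -4.35 to -2.04, Nissle samples next, and most CEC and conventional samples between -1.32 and -0.32, with CEC replicate 10 and conventional replicate 5 below them and CEC replicate 6 above.

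Whether the 2 transcripts varied together among samples of a group was examined within each of the 4 groups, since the groups form separate clusters, and p-values were adjusted over the 4. In conventional samples they rose and fell together, with a Pearson r of 0.93 (n = 10; permutation p = 1e-05, the smallest the 100000 resamples can give; adjusted 4e-05) and a Spearman rho of 0.96 (permutation p = 7e-05, adjusted 0.00028). Conventional replicate 9 was highest in both genes and replicate 5 lowest in both. Without these 2 samples, the farthest from the median of Duox2, r was 0.92 (n = 8; permutation p = 0.00194). The relation also held on raw Ct without normalisation, with an r of 0.94 (permutation p = 2e-05).

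In Nissle samples r was 0.72 (n = 10; permutation p = 0.00855, adjusted 0.0171) and rho 0.66 (permutation p = 0.0432, adjusted 0.0864). Without replicates 2 and 7, the lowest in both genes, r was 0.34 (n = 8, permutation p = 0.406), so the relation weakens without those samples, a cut that also narrows the range. Without normalisation or with another normaliser, r ran from 0.69 to 0.81 and rho from 0.65 to 0.87. Of these, rho passed only with the 10 most stable assays as normaliser (adjusted permutation p = 0.0047). In CEC samples r was 0.97 (n = 10; permutation p = 0.0588, adjusted 0.0785) but rho only 0.25 (permutation p = 0.491, adjusted 0.491), and without replicate 6 r was -0.09 (n = 9; permutation p = 0.818). The CEC value therefore rests on that sample, in which both genes were high. In germ-free samples r was -0.50 (n = 10; permutation p = 0.138, adjusted 0.138) and rho -0.61 (permutation p = 0.067, adjusted 0.0894). The germ-free r ranged from -0.73 with the median over the 153 assays measured in all samples as the normaliser to 0.15 without normalisation, and without replicates 12 and 30 it was -0.15. Whether r differed between groups was not tested.

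**Figure D5:**
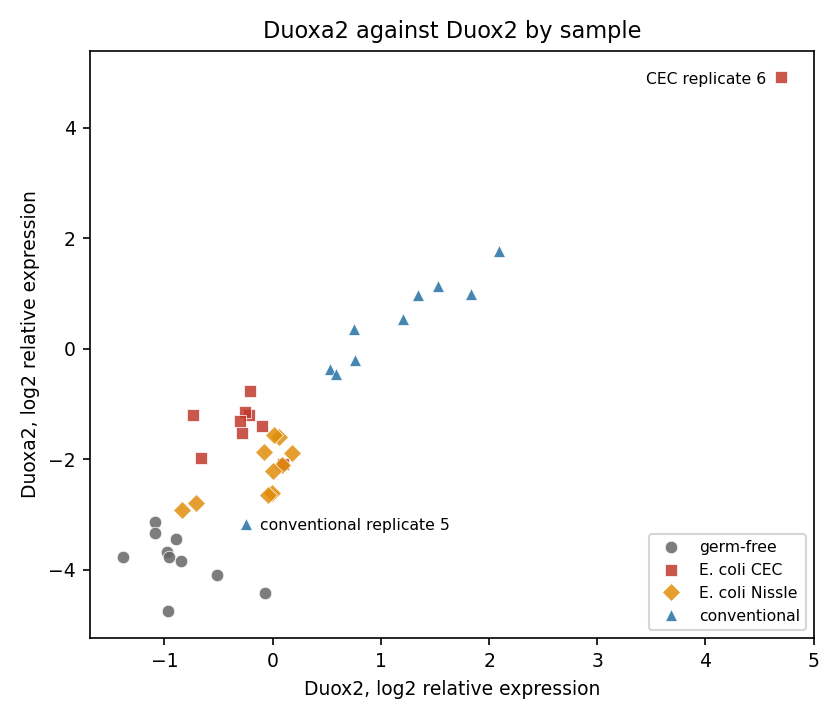
Duoxa2 against Duox2, both as log2 relative expression, in the 40 samples, with 1 marker shape and colour per group. The conventional samples line up from replicate 5 at the lower left to replicate 9, the germ-free samples show no such line, and CEC replicate 6 lies alone at the upper right.

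Over all 40 samples, with the group means subtracted, r was 0.88 (permutation within groups, p = 6e-05) and rho 0.67 (permutation p = 0.00019). The r was 0.65 without CEC replicate 6 (n = 39; permutation p = 0.00061). Without CEC replicate 6 and conventional replicate 5, the 2 samples farthest in Duox2, it was 0.62 around the group means of all samples (n = 38, permutation p = 0.00563). Those means still hold the 2 samples, which shifts the other deviations of their groups. Around group means taken without them r was 0.47 (n = 38, permutation p = 0.0116). Set beside the other assays measured in all samples, Duoxa2 was the closest to Duox2 of 152 by this r, and Duox2 the closest to Duoxa2. Next came Mm01203522_m1 for Duox2, with an r of 0.76, and Mm00448160_m1 for Duoxa2, with 0.75. Both values were 0.35 without CEC replicate 6, where these assays ranked 14th and 2nd. The pair ranked 16th of all 11628 pairs of assays, whose median r was 0.06. Without CEC replicate 6 each was still first for the other, but the pair ranked 784th. Without both samples the pair ranked 2057th, at an r of 0.47. Duox2 was then still the closest to Duoxa2, while Duoxa2 was 7th for Duox2. These ranks describe the panel: assays of a sample share its RNA and its normaliser.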

How the data were processed

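The deposited table holds raw Ct values, in PCR cycles, of 224 assays in 40 samples, per the file headers, which call it a truncated example. Per the labels' protocols the assays ran on a custom OpenArray, on RNA from a mirVana extraction. The sources used here do not name the Ct threshold or quality filters. A Ct of 40 (405 wells, 21 assays) was read as undetermined. Another 156 values carried more digits than the rest of the table or equalled the mean of their group's measured samples (within 2e-06 cycles), and were read as filled in, none of them in Duox2 or Duoxa2. Both kinds were left missing, and the 203 assays without a Ct of 40 set the sample median, with their values as deposited.

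Log2 relative expression assumes that each cycle doubles the product. Groups were compared with limma 3.58.1 (lmFit and eBayes, R 4.3.3). A single fit held all 4 groups, on assays with at least 5 measured samples in both groups compared. P-values are two-sided, adjusted by the Benjamini-Hochberg method over all assays tested in a comparison, with a threshold of 0.05. Permutation tests used 100000 resamples. No 2 samples were duplicates: the median absolute difference over assays was 0.217 log2 units in the closest pair and 0.548 in the median pair.

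The 2 genes, motifs and tests were chosen with earlier results of these data known. Named assays are the pair and, for each gene, the 2 assays with the highest r of deviations from group means, of which the other gene is the first. The lists of other oxidase genes and of cell type markers were not counted, because assay IDs are not paired with genes. One promoter motif family, NF-kB, was searched as 2 strings and is given by name.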

Additional observations from a re-analysis of the deposited data

Results flagged for a closer look

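Examined were 16 sets of 10 samples: both genes, their Ct difference and the sample median Ct in each group. In 4 sets the gap of a sample to its nearest neighbour exceeded 0.466 of the group's range, Dixon's critical value. Chance gives about 1 in 20 for independent sets. These sets share values, since the Ct difference is built from both genes and the sample median enters both. The 4 flags come from 2 samples, so their count cannot be set against that share. CEC replicate 6 lay far above its group, at 4.70 for Duox2, where the next CEC sample had 0.10, and at 4.91 for Duoxa2, where the next had -0.77. Conventional replicate 5 lay far below its group for Duoxa2, at -3.17 against -0.45 in the next sample, and for the Ct of Duox2 minus the Ct of Duoxa2, at -2.92 against -1.04.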

How the results depend on the processing

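The differences of conventional from germ-free samples (both genes), and those of Duoxa2 between CEC and germ-free and between Nissle and conventional samples, kept their direction and call in all 55 or 56 other settings. Leaving out 1 sample at a time gave, for Duox2, 0.58 to 1.18 (CEC minus germ-free), 0.69 to 0.83 (Nissle minus germ-free), -0.17 to 0.44 (CEC minus Nissle), -1.33 to -0.72 (CEC minus conventional) and -1.31 to -1.05 (Nissle minus conventional). For Duoxa2 it gave 1.50 to 1.68 (Nissle minus germ-free) and -1.56 to -0.75 (CEC minus conventional), and for the difference between the genes -0.32 to 0.04 (CEC minus conventional). With sample quality weights, under which more of all assays were called too, calls were gained for Duox2 at 0.69 (CEC minus germ-free), 0.84 (Nissle minus germ-free) and -1.25 (CEC minus conventional), and for Duoxa2 at 1.50 (Nissle minus germ-free) and -1.57 (CEC minus conventional), while Duox2 between the strains turned to -0.15. Without normalisation, Duox2 turned to -0.09 between the strains, and CEC against conventional passed at -1.60 (Duox2) and -1.69 (Duoxa2). Leaving out both CEC replicate 6 and conventional replicate 5, chosen after seeing the data, gave calls at 0.58 (Duox2, CEC minus germ-free), 0.75 and 1.60 (Duox2 and Duoxa2, Nissle minus germ-free), -1.48 and -1.93 (Duox2 and Duoxa2, CEC minus conventional). Duox2 between the strains was then -0.17, not a call. The permutation test called 1.08 for Duox2 after CEC and, like the fit of 2 groups alone, 0.75 and 1.60 after Nissle. With the replicate block, Duox2 in Nissle minus conventional kept -1.17 but no longer passed (limma, adjusted p = 0.0668). Correlations of deviations between samples of the same number were over 0.1 in 7 of 10 pairs of CEC with conventional samples (median 0.21). They were over 0.1 in 3 of 10 pairs of Nissle with conventional and in 1 of 10 of CEC with Nissle. The sample of the same number correlated best in 4, 1 and 1 of the 10 pairs, in that order. The numbers were not taken as pairs, a choice that the values of CEC with conventional samples bear out less than the others. With the block, Duox2 in CEC minus conventional kept -0.83 and did not pass (limma, adjusted p = 0.173). The germ-free group shares too few numbers for a block. The r of the pair in germ-free samples was 0.15 without normalisation, -0.65 with the 10 most stable assays and -0.73 with the assays measured in all samples, where the last 2 passed. In CEC samples it passed at 0.94 without normalisation and at 0.97 with the 10 most stable assays, and was -0.09 without replicate 6. In Nissle samples it was 0.34 without the 2 farthest samples. The cause of these changes was not tested. The number of samples, 10 per group, limits the precision.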
